A study of Mus musculus with 9 samples.

Results

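The small heat shock proteins are chaperones built around an alpha-crystallin domain. They bind unfolding proteins without using ATP and hand them to the Hsp70 machinery for refolding or to autophagy for removal. Some of them form large oligomers. Hspb1 and Cryab are widely made and are classic targets of the heat shock factor Hsf1, whereas Hspb2, Hspb6 and Hspb7 are best known from heart and skeletal muscle, where they sit close to the actin and filamin cytoskeleton. The genes described here, Hspb1, Hspb2, Hspb6, Hspb7, Hspb8 and Cryab, are 6 of the 26202 genes of the deposited table and were found by their symbols. They were chosen because Hspb7 differed widely between acetate and ethanol. The levels of Hspb7, and the acetate against ethanol difference of each of the 6 genes, are therefore given as a description with no p-value.

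The cells were ATDC5, a mouse chondrogenic cell line used as a culture model of cartilage formation, sequenced in 9 libraries, of which 3 carry the label control, 3 acetate and 3 ethanol. According to the growth protocol in the labels every group grew in DMEM/F-12 with 5% FBS and 1% penicillin and streptomycin. Together with the treatments the medium of all groups received ascorbate at 50 µg/mL, beta-glycerophosphate at 10 mM and an insulin, transferrin and selenium supplement at 1 X. The treatment protocol in the labels describes mouse livers and HepG2 cells, not ATDC5, and was not used. The sources used here do not give the dose or duration of acetate and ethanol, or what replaced them in controls. Whether replicates were separate cultures is not stated, so p-values measure the spread between these libraries, which may be technical. Acetate is a product of ethanol oxidation, and the design sets each of the pair against control and against the other.

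Levels are in CPM, read counts scaled to library size on the authors' TMM scale and recovered from deposited log2 values, and the libraries held 28.7 to 41.9 M recovered reads. Each of the 6 genes had between 763 and 38561 recovered reads in every library, and all 6 passed the filter of a mean of at least 1 CPM. All 8 chondrocyte marker genes examined, among them Sox9, Col2a1 and Acan, passed that filter as well. Acetate replicate 2 stood apart: its deviation from the other acetate libraries rose with the GC content of the transcript (Pearson r = 0.84 across 12630 genes, which are not independent replicates). The transcripts of the 6 genes have 53.0% to 61.2% GC, and in that library they lay at 1.12 to 1.67 times the mean of the other acetate libraries. For the 6 genes, log2 fold changes of acetate against control are therefore also given without it.

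Upstream sequence was at hand for 4 of the 6 genes, from RefSeq on GRCm38.p6, and a window of 250 bases before the annotated start was searched on both strands. The motifs were the heat shock element in its head-to-head form GAANNTTC and its tail-to-tail form TTCNNGAA, the core of MEF2 sites (CTA and TAG separated by 4 bases), the TATA box TATAAA and the hypoxia response core ACGTG. These sequences are shown for Hspb7, the gene with the largest log2 differences between groups, and for the genes that held a match. The latter were Hspb1 and the second annotated start of Hspb6. Matches are in capitals and each sequence runs 5′ to 3′ on the strand of its gene. No matches in these windows overlapped.
Hspb7 (chr4:141420529-141420778, plus strand): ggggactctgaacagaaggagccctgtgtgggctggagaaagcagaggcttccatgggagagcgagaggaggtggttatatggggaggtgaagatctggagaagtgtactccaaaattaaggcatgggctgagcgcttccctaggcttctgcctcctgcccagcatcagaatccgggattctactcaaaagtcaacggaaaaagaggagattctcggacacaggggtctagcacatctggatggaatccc
Hspb1 (chr5:135887669-135887918, plus strand): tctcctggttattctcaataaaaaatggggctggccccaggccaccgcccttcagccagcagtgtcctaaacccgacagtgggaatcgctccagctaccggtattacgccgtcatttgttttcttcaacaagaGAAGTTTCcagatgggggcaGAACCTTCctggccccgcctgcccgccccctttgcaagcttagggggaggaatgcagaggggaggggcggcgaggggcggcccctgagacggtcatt
Hspb6 (chr7:30553051-30553300, plus strand): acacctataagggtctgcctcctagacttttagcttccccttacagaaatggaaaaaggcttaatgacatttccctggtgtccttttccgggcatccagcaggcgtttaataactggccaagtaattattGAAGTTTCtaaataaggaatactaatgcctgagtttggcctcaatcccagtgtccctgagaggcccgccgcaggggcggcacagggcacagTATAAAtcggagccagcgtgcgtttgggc

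Hspb1 held 2 head-to-head heat shock elements, GAAGTTTC from 117 to 110 bases and GAACCTTC from 97 to 90 bases before the start. The second start of Hspb6 held the head-to-head form GAAGTTTC from 120 to 113 bases and a TATA box from 29 to 24 bases before it. The head-to-head form occurred in 6.69% and the tail-to-tail form in 7.17% of the 32851 promoter windows of the table. The TATA box occurred in 12.4% of them. None of the 5 motifs matched in the windows of Hspb7, of Hspb8 and of the first start of Hspb6. The MEF2 core (3.20% of all windows) and the hypoxia core (16.6%) matched in no window of these genes. Such matches describe letters and not bound sites.

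Hspb7, known as the cardiovascular small heat shock protein, spanned the widest range (chr4:141420779-141425311 on GRCm38, plus strand). It stood at 129, 111 and 111 CPM in control replicates 1, 2 and 3, at 160, 207 and 142 CPM in acetate, and at 37.1, 31.0 and 30.8 CPM in ethanol. The 3 groups did not overlap, with acetate above control and ethanol below it. Acetate replicate 2 was the highest of the 9 libraries.

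The group means of Hspb7 were 117 ± 10.7 CPM in control, 170 ± 33.4 in acetate and 33.0 ± 3.59 in ethanol (SD, n = 3). The mean in acetate was 5.15 times that in ethanol, with ratios of 4.31, 6.67 and 4.63 between libraries of the same replicate number. On the log2 scale of CPM plus 1 the difference between acetate and ethanol was 2.32 ± 0.16 (SE from limma), and 2.17 without acetate replicate 2. Of 12868 tested genes only Ndufa4l2 had a larger absolute difference between these groups, at 2.44 on the same scale. The ethanol side made the larger part of the gap. Against control the log2 fold change was -1.80 ± 0.16 with ethanol, and 15 tested genes had a larger absolute value. Between same-numbered libraries the ethanol level was 0.287, 0.280 and 0.278 times the control level. Against control the log2 fold change with acetate was 0.52 ± 0.16. It was 0.37 without acetate replicate 2 and 0.34 after removal of the GC trend. These 3 differences share their libraries and are not independent of one another. In bulk RNA, fewer cells that express a gene and less RNA per cell cannot be told apart.

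**Figure D1:**
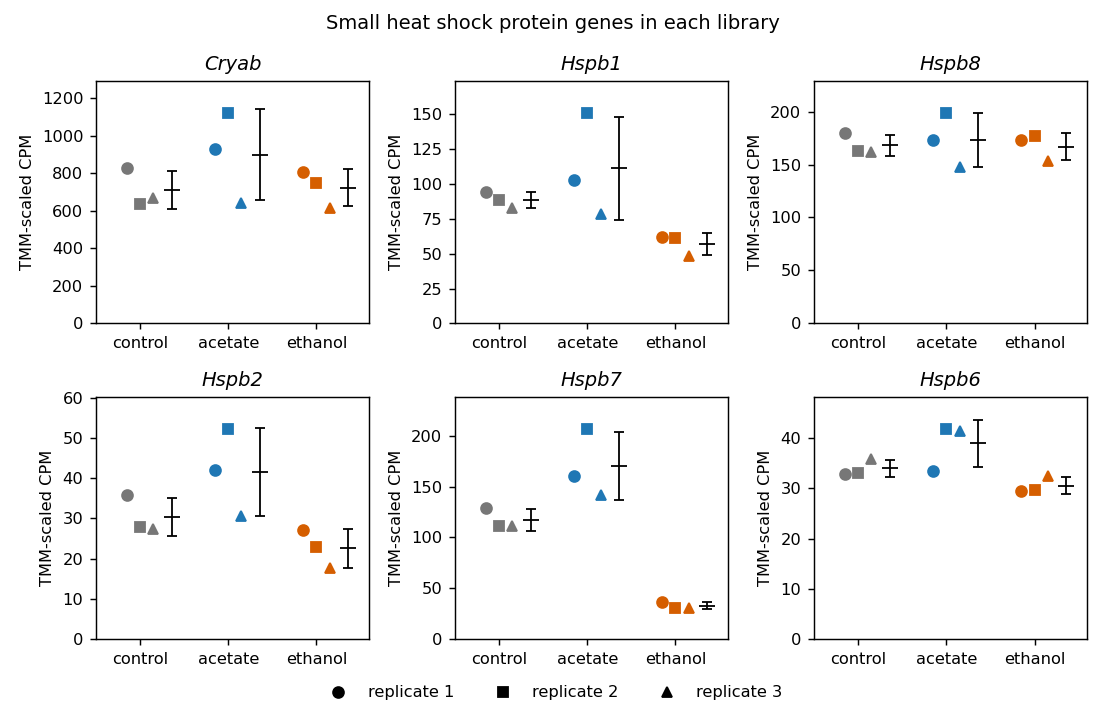
Level of each gene in TMM-scaled CPM (y axis, from 0, a separate scale per panel) in the 9 libraries, by group, with marker shapes for the replicate number and black bars for mean ± SD (n = 3). Hspb7 lay between 30.8 and 37.1 CPM in ethanol and at 111 CPM or above in the other groups, while Hspb8 and Cryab overlapped in all 3 groups.

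Srarp, a gene 7360 bases from Hspb7 on chromosome 4, was nearly silent. It averaged 0.283 CPM in control, 0.256 in acetate and 0.218 in ethanol, and did not reach the mean of 1 CPM required for a test.

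Hspb1, the widely made Hsp25 of the mouse (chr5:135887919-135889563, plus strand), stood at 94.3, 88.5 and 82.4 CPM in control. It was at 103, 151 and 78.1 CPM in acetate and at 62.1, 61.3 and 48.1 CPM in ethanol. All 3 ethanol libraries lay below the lowest control library, whereas acetate and control overlapped. With ethanol the log2 fold change was -0.63 ± 0.22, a mean 0.647 times that of control, and it missed the threshold (limma adjusted p = 0.16; unadjusted 0.017). Alternatives to this fit gave adjusted p-values of 2.6e-04 to 0.47. Hspb1 was past the threshold without acetate replicate 2 (limma adjusted p = 0.0075), after removal of the GC trend (0.016) and with only the 6 libraries compared (0.0027), each time at -0.61 to -0.63. In those fits 2766, 2312 and 3443 of the 12868 tested genes passed, in the same order, against 506 in the fit first given. The lowest adjusted p-value came with the replicate block and the GC trend removed, where 5129 genes passed. With acetate the log2 fold change of Hspb1 was 0.27 ± 0.22 (limma adjusted p = 0.51), and it was 0.02 without acetate replicate 2. Between acetate and ethanol it differed by 0.90 ± 0.22, and by 0.65 without acetate replicate 2, given as a description. Ywhag, a 14-3-3 adaptor gene 18845 bases downstream, did not pass in either comparison with control, with log2 fold changes of 0.25 ± 0.11 for acetate (limma adjusted p = 0.34) and 0.07 ± 0.11 for ethanol (0.81).

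Cryab and Hspb2 lie head to head on chromosome 9. Cryab, the alpha-B crystallin of lens and muscle (chr9:50751325-50756636, plus strand), was the most abundant of the family. It stood at 828, 638 and 670 CPM in control, at 928, 1122 and 643 in acetate and at 807, 748 and 614 in ethanol. The groups overlapped throughout. The log2 fold change was 0.31 ± 0.21 with acetate (limma adjusted p = 0.46; 0.13 on the same scale without acetate replicate 2) and 0.02 ± 0.21 with ethanol (limma adjusted p = 0.97).

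Hspb2, which binds the myotonic dystrophy kinase (chr9:50751078-50752354, minus strand), stood at 35.7, 27.8 and 27.3 CPM in control. It was at 41.9, 52.3 and 30.5 CPM in acetate and at 27.2, 22.9 and 17.6 CPM in ethanol. The ethanol libraries reached just below the lowest control library. The log2 fold change was -0.42 ± 0.22 with ethanol (limma adjusted p = 0.34) and 0.42 ± 0.22 with acetate (limma adjusted p = 0.40), and acetate exceeded ethanol by 0.84 ± 0.22, a description. Without acetate replicate 2 these acetate differences were 0.24 and 0.66.

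The ratio of Cryab to Hspb2 within a library was 23.2, 22.9 and 24.6 in control, 22.2, 21.4 and 21.1 in acetate, and 29.7, 32.7 and 34.9 in ethanol. All ethanol ratios lay above all control ratios, and all acetate ratios slightly below them. The log2 ratio in ethanol exceeded that in control by 0.46 (two-sided exact permutation p = 0.10, the smallest that 3 against 3 libraries allow), and acetate minus control was -0.13 (two-sided exact permutation p = 0.10). This ratio was chosen after the values were seen. The genes are annotated on opposite strands with 252 exonic bases in common, out of 834 for Hspb2 and 1479 for Cryab. The library kit was stranded, but the sources used here do not say whether strand was used in counting, so reads of Cryab may have been assigned to Hspb2 or the reverse.

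**Figure D2:**
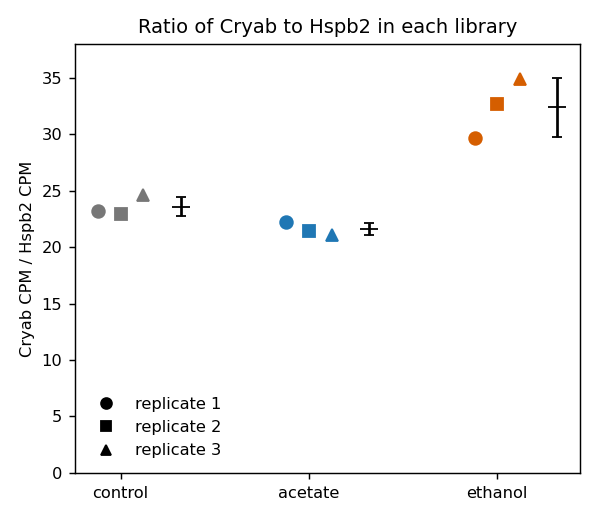
Ratio of Cryab to Hspb2, both in TMM-scaled CPM (y axis, from 0), in each of the 9 libraries, with marker shapes for the replicate number and black bars for mean ± SD (n = 3). The ethanol libraries lay between 29.7 and 34.9, above the range of 21.1 to 24.6 of the other 6.

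Hspb8 is the partner of the co-chaperone Bag3 in the selective autophagy of damaged proteins (chr5:116408491-116422864, minus strand). It stood at 180, 163 and 162 CPM in control, at 173, 199 and 148 CPM in acetate and at 173, 177 and 153 CPM in ethanol, with overlap between all groups. Its log2 fold changes were 0.03 ± 0.13 with acetate (limma adjusted p = 0.89) and -0.01 ± 0.13 with ethanol (limma adjusted p = 0.98). Without acetate replicate 2 the former was -0.07. Bag3 itself averaged 78.2 ± 5.29 CPM in control, 86.7 ± 8.80 in acetate and 85.7 ± 4.78 in ethanol (SD, n = 3), and did not pass (limma adjusted p = 0.51 and 0.60 against control).

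Hspb6, the Hsp20 of muscle and a substrate of cyclic nucleotide-dependent kinases (chr7:30552178-30555443, plus strand), lay between 29.4 and 41.9 CPM. It stood at 32.9, 33.1 and 35.9 CPM in control, at 33.5, 41.9 and 41.5 CPM in acetate and at 29.4, 29.6 and 32.4 CPM in ethanol. The ethanol libraries lay just below the control libraries, at 0.894, 0.895 and 0.903 times the same-numbered control. The log2 fold changes were -0.15 ± 0.12 with ethanol (limma adjusted p = 0.55) and 0.19 ± 0.12 with acetate (limma adjusted p = 0.44), the latter 0.13 without acetate replicate 2. Hspb6 shares 122 exonic bases with Proser3 and 3 with Lin37 on the opposite strand, and holds the 77 bases of the annotated miRNA gene Gm38670. Proser3 and Lin37 averaged 4.64 and 5.87 CPM in control.

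Of the 5 genes other than Hspb7, limma placed 0 past an adjusted p of 0.05 for acetate against control, where 1.00% of all tested genes passed. At an unadjusted p under 0.05 in limma the count was 0 of 5, and the share of all tested genes at that level is not given here. For ethanol against control limma placed 0 of 5 past the adjusted threshold, where 3.93% of all tested genes passed. In the same fit 1 of 5, Hspb1, had an unadjusted p under 0.05, again without a share of all genes to set beside it. Voom on recovered reads also called 0 of 5 in each comparison, beside 99 of all tested genes for acetate and 497 for ethanol. For Hspb1, Hspb2 and Hspb6 every ethanol library lay below every control library, which held for 23.3% of all tested genes. Hspb7 alone of the 6 had every acetate library above every control library, a pattern of 11.4% of all tested genes. Between acetate and ethanol, Hspb1, Hspb2, Hspb6 and Hspb7 had every acetate library higher, beside 15.3% of all tested genes, a description since the genes were chosen on that difference. Over the 5 genes the median log2 fold change was -0.15 with ethanol and 0.27 with acetate, and 0.13 for acetate without its replicate 2. All tested genes had medians of -0.01 for acetate and 0.00 for ethanol. The acetate against control difference also rose with GC content (Pearson r = 0.59 across 12630 genes). For ethanol against control r was -0.06. After removal of the GC trend the acetate values were 0.06 for Hspb1, 0.23 for Hspb2, 0.04 for Hspb6, 0.19 for Cryab and -0.06 for Hspb8. The ethanol values were then -0.61, -0.40, -0.14, 0.04 and 0.01, in the same order. Replicate numbers paired the ethanol and control libraries, and with replicate number as a block Hspb1 was at adjusted p = 0.066 (limma) and 0 of 5 passed. The share of all genes that passed depended on single libraries. For ethanol it came from 506 genes, against 2766 without acetate replicate 2, 98, 200 and 182 without control replicate 1, 2 and 3, and 217, 109 and 160 without ethanol replicate 1, 2 and 3. For acetate it came from 129 genes, against 448 and 33 without acetate replicate 2 and 3, 3, 27 and 0 without control replicate 1, 2 and 3, and 56, 54 and 52 without ethanol replicate 1, 2 and 3.

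**Figure D3:**
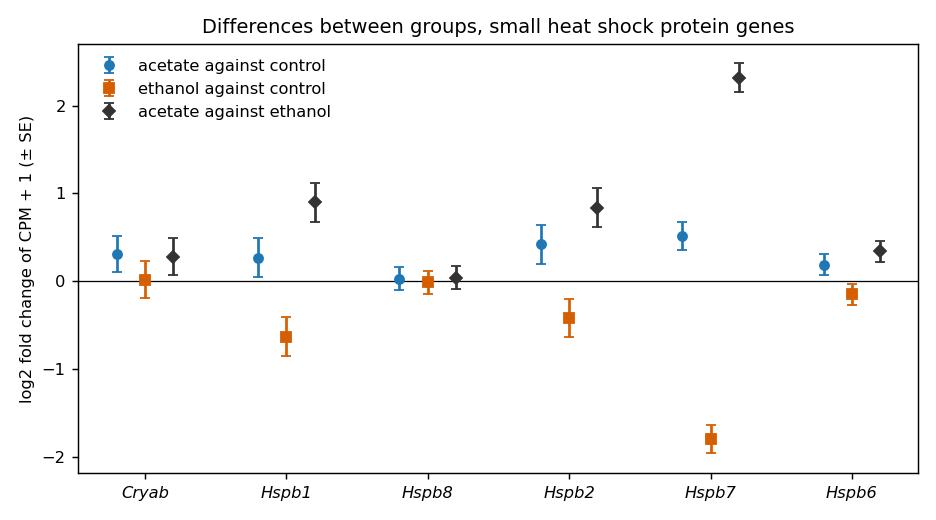
Log2 fold change of CPM plus 1 (y axis, ± SE from limma) for the 6 genes (x axis) in the 3 pairwise comparisons of the groups. Hspb7 spanned -1.80 with ethanol to 0.52 with acetate, and Hspb8 stayed within 0.04 of 0 in all 3 comparisons.

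Per kilobase of median annotated transcript, Cryab exceeded the rest of the family in every group. In control its level was 795 ± 114 CPM per kb, followed by Hspb1 (96.5 ± 6.50), Hspb8 (92.6 ± 5.60), Hspb2 (45.7 ± 7.14), Hspb7 (42.2 ± 3.87) and Hspb6 (24.9 ± 1.24; SD, n = 3 each). The ranges of Hspb1 and Hspb8 overlapped, as did those of Hspb2 and Hspb7, and the other neighbours in this order were separate. Acetate kept the same order and the same overlaps, with 61.3 ± 12.1 CPM per kb for Hspb7. In ethanol Hspb7 was last at 11.9 ± 1.30 CPM per kb, under Hspb6 at 22.4 ± 1.23, and Hspb8 at 92.2 ± 7.03 lay above Hspb1 at 62.4 ± 8.58, with no overlap between neighbours in either case. The share of Hspb7 in the summed level per kb of the 6 genes was 3.73% to 3.99% in control, 4.16% to 5.08% in acetate and 1.05% to 1.26% in ethanol.

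Other genes of the family were absent or nearly so. Cryaa, the lens alpha-A crystallin, and Hspb3, Hspb9 and Odf1 averaged under 1 CPM and were not tested. Odf1, a sperm tail protein gene, was the highest of them, at a mean of 0.0877 CPM in control. Hspb11, a component of the ciliary transport machinery and not a typical chaperone, stood at 24.1 ± 3.55 CPM in control, 16.2 ± 8.10 in acetate and 16.8 ± 2.99 in ethanol. It did not pass against control (limma adjusted p = 0.36 for acetate and 0.43 for ethanol), with log2 fold changes of -0.65 ± 0.31 and -0.50 ± 0.31. It was at 8.58 CPM in acetate replicate 2, without which the acetate value was -0.29. With ethanol Hspb11 passed when only the 6 libraries were compared (-0.50, limma adjusted p = 0.026), beside 3443 of the 12868 tested genes. With the replicate block and the GC trend removed Hspb11 passed for ethanol (-0.52, limma adjusted p = 0.00089) and for acetate (-0.30, 0.019). In that fit 5129 of all tested genes passed for ethanol and 2725 for acetate.

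The wider chaperone system was described through 53 genes for heat shock factors, Hsp70, Hsp90, Hsp40, chaperonins, BAG proteins and their partners, 52 of which were tested. With ethanol 0 of 52 passed the adjusted threshold in limma, beside 3.93% of all genes. With voom 0 passed, beside 497 of all tested genes. The median log2 fold change was -0.04. At an unadjusted p under 0.05 in limma the count was 2 of 52, and the share of all genes at that level is not given here. With acetate 1 of 52 rose and 0 fell, beside 1.00% of all genes, and the median was -0.01. The gene that rose was Synpo2, an actin-binding partner of Bag3, from 2.06, 2.05 and 2.51 CPM in control to 3.99, 4.28 and 4.71 CPM in acetate. Its log2 fold change was 0.73 ± 0.12 (limma adjusted p = 0.027), and it was 0.74 without acetate replicate 2 (0.015). The call was lost, leaving 0 of 52, without any 1 control library, without acetate replicate 3, without any 1 ethanol library and with only the 6 libraries compared. Synpo2 was also the only gene of the 52 that passed between acetate and ethanol (0.57 ± 0.12, limma adjusted p = 0.031), where 3.73% of all tested genes passed. That call was lost with no filter, with only the 6 libraries compared and without control replicate 1 or 2, acetate replicate 1 or 3 or any 1 ethanol library. Without acetate replicate 3 the 1 gene that passed there was Hspa1a (1.17 ± 0.23, limma adjusted p = 0.031), beside 705 of all tested genes. With replicate number as a block Hspa1b passed there too (0.63 ± 0.14, limma adjusted p = 0.049), beside 823 of all tested genes. Without acetate replicate 2, which enters the spread of every gene, 4 of 52 fell with ethanol, namely Cdc37, Dnajb2, Hspe1 and Stub1, each by 0.30 on the log2 scale, in a fit where 21.5% of all tested genes passed.

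Hsf1, Hspa1a, Hspa1b, Hspa8, Hsp90aa1 and Dnajb1, described whatever their test gave, did not pass against control. With the replicate block and the GC trend removed Hspa1b (-0.24, limma adjusted p = 0.019) and Hspa8 (-0.16, 0.046) passed for ethanol, beside 5129 of all tested genes. Hsf1, the factor that drives the heat shock response, averaged 52.0 ± 6.66 CPM in control, 67.8 ± 11.9 in acetate and 55.7 ± 0.967 in ethanol. The inducible Hsp70 gene Hspa1b averaged 45.8 ± 6.75, 61.2 ± 21.4 and 37.9 ± 3.92 CPM, and its near-identical copy Hspa1a 6.01 ± 0.898, 9.49 ± 4.92 and 4.61 ± 1.08 CPM, and reads of these copies may have been split between them. For Hspa1b the log2 fold changes were 0.37 ± 0.22 with acetate and -0.26 ± 0.22 with ethanol (limma adjusted p = 0.43 and 0.58). The constitutive Hspa8 (1649 ± 92.3, 1532 ± 178 and 1467 ± 30.7 CPM) and Dnajb1 (73.4 ± 3.89, 74.6 ± 10.9 and 73.4 ± 1.68 CPM) did not pass either (limma adjusted p = 0.50 and 1.0 for ethanol). Hsp90aa1 was at 240 CPM in acetate replicate 2 and at 516 to 624 CPM in the other 8 libraries, and its transcripts have 43.1% GC.

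**Figure D4:**
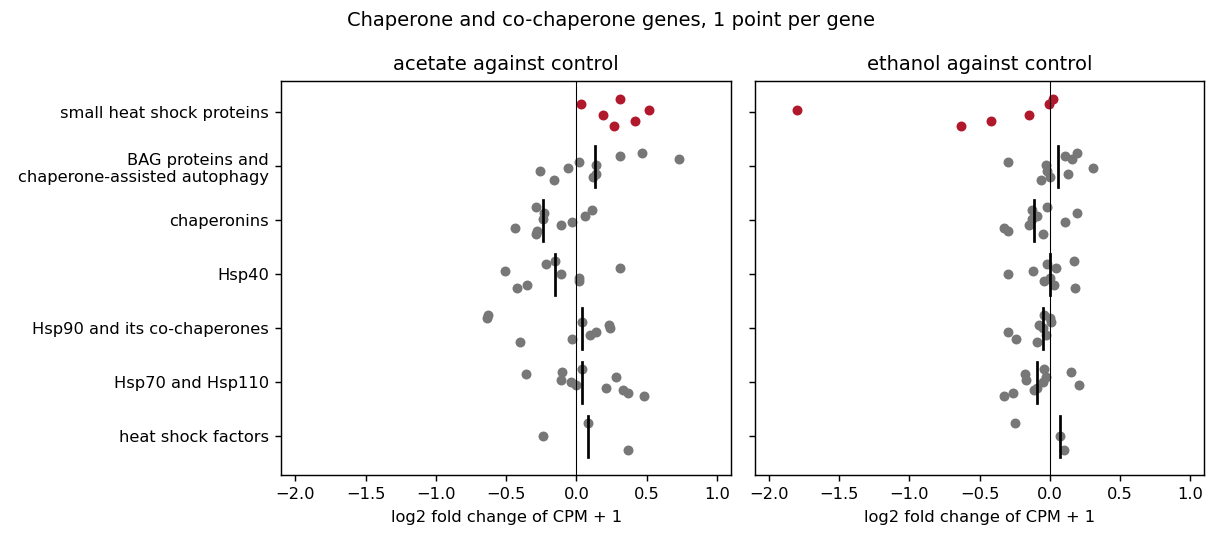
Log2 fold change of CPM plus 1 (x axis) of each tested gene (1 point per gene) for acetate and for ethanol against control, grouped by list (y axis), with black lines at the medians of the lists other than the 6 genes. With ethanol Hspb7 lay at -1.80, and the 52 other chaperone genes between -0.33 and 0.31.

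Since several of these genes are typical of muscle, marker genes of muscle were set beside them. Of 10 skeletal muscle markers, 9 stayed under 1 CPM in every library, and Myod1, Myog and Myf5 were at 0 in all 9. The summed level was 1.16 to 2.35 CPM in control, 2.02 to 2.41 in acetate and 1.00 to 1.42 in ethanol. Tnnc2, a troponin gene outside these lists, ranked 3 among tested genes by its difference between acetate and ethanol, next after Hspb7. It was higher in acetate by 2.26 on the log2 scale, and its levels are not given here. Of 8 cardiac markers, 6 stayed under 1 CPM in every library, and the sum was 2.23 to 3.80 CPM in control, 3.71 to 6.38 in acetate and 5.46 to 9.91 in ethanol. The cardiac sum followed Tnnt2, a troponin gene at 1.30 ± 0.545 CPM in control, 3.39 ± 1.34 in acetate and 5.40 ± 1.66 in ethanol (SD, n = 3). Against control the log2 fold change of Tnnt2 was 0.92 ± 0.26 with acetate (limma adjusted p = 0.15) and 1.47 ± 0.26 with ethanol (0.019). The 6 smooth muscle markers, led by Acta2, summed to 489 to 623 CPM in control, 676 to 878 in acetate and 516 to 612 in ethanol. The 8 chondrocyte markers summed to 10622 to 13904 CPM in control, 5592 to 6230 in acetate and 5056 to 6295 in ethanol. All 5 osteoblast markers passed the filter, and they summed to 8016 to 9357 CPM in control, 5851 to 8728 in acetate and 5079 to 5616 in ethanol, where every library lay below the other 6. Ibsp, a bone matrix protein gene, made most of that sum, with means of 7268, 5960 and 4249 CPM in control, acetate and ethanol. Alpl, the alkaline phosphatase of mineralising cells (819, 896 and 540 CPM), and the osteocalcin gene Bglap (15.7, 23.1 and 4.26 CPM) had their highest mean in acetate and their lowest in ethanol, as Hspb7 did. The other osteoblast markers differed from that order. Runx2 (352, 318 and 314 CPM) and Ibsp had their highest mean in control, and Sp7 averaged 310, 310 and 268 CPM. The part of all these markers in the levels of the small heat shock genes was not tested.

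The genes with the profile closest to that of Hspb7 over the 9 libraries were sought by the mean absolute difference of log2 values of CPM plus 1, each gene centred on its own mean, among 10933 genes averaging 5 CPM or more. Ecrg4 (0.11) came first, followed by the osteocalcin gene Bglap (0.17), Sema3b (0.27), the osteocalcin copy Bglap2 (0.28) and F13a1 (0.29). Ecrg4, which codes for a secreted peptide precursor, averaged 7.94 ± 0.579 CPM in control, 10.5 ± 3.02 in acetate and 1.54 ± 0.670 in ethanol. Bglap averaged 15.7 ± 3.37, 23.1 ± 3.97 and 4.26 ± 0.692 CPM. Reads of Bglap and Bglap2 may have been shared. Within the family Hspb1 was nearest to Hspb7, at a difference of 0.58 and rank 110, followed by Hspb2 (0.63), Hspb6 (0.81), Cryab (0.86) and Hspb8 (0.90).

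**Figure D5:**
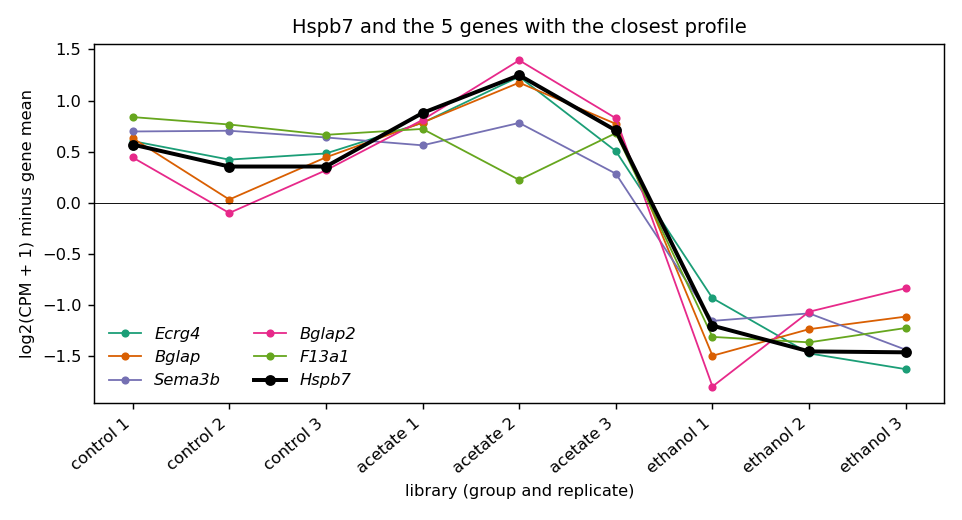
Log2 of CPM plus 1 minus the mean of each gene over 9 libraries (y axis) for Hspb7 (thick black line) and the 5 genes closest to it, by library (x axis). Hspb7 and all 5 genes lay below their own mean in the 3 ethanol libraries and above it in acetate, and these genes were selected for that likeness.

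Cryab had a different set of close genes, Msrb1 (0.04), Gins2 (0.05), Rnaseh2a (0.06), Gpx4 (0.07) and Fars2 (0.07). In all 5 the highest library was acetate replicate 2, as in Cryab. Gpx4, for example, which codes for a lipid peroxidase, stood at 166 CPM there and at 86.1 to 126 CPM in the other libraries. Of the family Hspb8 came nearest to Cryab (0.14), and Hspb2, its neighbour on the chromosome, lay at 0.22. Points of these profiles share library, depth and the GC trend of acetate replicate 2.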

How the data were processed

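Messenger RNA of ATDC5 cells was sequenced in 9 libraries, 3 per group, with groups and replicate numbers from the sample titles. The authors deposited 1 table of log2 values, TMM-normalised counts per the file name, and the submitters' processing notes name Partek, Bowtie2 2.2.5, STAR 2.7.8a and mm10 without roles. The sources used here do not give the counting, annotation or strand setting. Genes without reads sat at a floor fitting an offset of 1e-05 read, which was subtracted to give TMM-scaled CPM and reads. Of low values (1 to 20 reads), 85.6% to 87.2% lay within 0.02 of a whole number, so the count-based fit (voom) served only as an alternative.

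The 12868 genes averaging 1 CPM or more were fitted as log2 of CPM plus 1 with limma 3.58.1 in R 4.3.3, over all 9 libraries, with a variance trend and Benjamini-Hochberg adjustment. The threshold was an adjusted p of 0.05. The pseudocount understates changes of low genes. The labels give replicate numbers, and deviations from the group means were correlated across genes. Same-numbered libraries of ethanol and control had r = 0.55, 0.36 and 0.67, and differently numbered ones -0.6 to 0.25. For acetate and ethanol the values were 0.15, 0.25 and 0.61, against -0.48 to 0.18. For acetate and control they were 0.25, -0.10 and 0.41, against -0.48 to 0.26, so a pairing was least clear there.

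Positions, median transcript length and GC content (98.2% of tested genes) came from GENCODE M21 on GRCm38, the build of mm10, upstream sequence from RefSeq. Python 3.11.15, pandas 2.3.3, scipy 1.17.1 and matplotlib 3.10.9 were used. The 6 genes and the gene lists were chosen with earlier results of these data known. Genes were named as members, as listed members past the threshold, as neighbours or as closest profiles, and 1 neighbour is not reported here. The alternatives concerned pseudocount, filter, scaling, GC trend (lowess span 0.3), block, voom and libraries.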

Additional observations from a re-analysis of the deposited data

How the results depend on the processing

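The log2 difference of Hspb7 between acetate and ethanol (2.32) moved by more than its residual SD of 0.19 only when the GC trend of each library was removed, to 2.12 with or without replicate number as a block, and lay between 2.17 and 2.43 when single libraries were left out. Among the 5 other genes, 0 passed against control. With the replicate block and the GC trend removed 1 passed for acetate (Hspb2, adjusted p = 0.031 in limma) and 2 for ethanol (Hspb1 and Hspb2). In that fit 2725 of all 12868 tested genes passed for acetate and 5129 for ethanol. For ethanol 1 passed, Hspb1, with the GC trend removed, with only the 6 libraries compared and without acetate replicate 2, so that leaving out single libraries gave 0 to 1 for ethanol and 0 to 0 for acetate. The replicate block alone changed no call of the 5 genes. The signs of values near 0 were not stable. Hspb8 with acetate (0.03) turned to -0.06 with the GC trend removed, with or without the block, and ranged from -0.07 to 0.14 without single libraries. Hspb8 with ethanol (-0.01) turned to 0.00 with quantile normalization and 0.01 with the GC trend removed, with or without the block, and ranged from -0.05 to 0.06. Cryab with ethanol (0.02) ranged from -0.06 to 0.14 without single libraries, and was 0.25 ± 0.16 with quantile normalization (limma adjusted p = 0.46).

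Of the 52 other chaperone genes, 1 passed for acetate, 0 for ethanol and 1 between acetate and ethanol. Among genes averaging 5 CPM or more these counts were 0, 0 and 0, but that filter removed Synpo2, the gene called, before any test. Synpo2 averaged 2.21 CPM in control, 4.33 in acetate and 2.59 in ethanol. The counts were 2, 2 and 4 with the GC trend removed, and 10, 11 and 16 with the replicate block and the GC trend removed. They were 0, 6 and 0 with only the 6 libraries compared. Between acetate and ethanol the count was 0 with no filter and 2 with the replicate block. Without single libraries the counts ranged from 0 to 1, 0 to 4 and 0 to 2. Over all genes 129, 506 and 480 passed in the same order. They were 52, 283 and 307 among genes averaging 5 CPM or more, 293, 1074 and 823 with the replicate block, 768, 2312 and 1525 with the GC trend removed, 2725, 5129 and 4367 with both, and 20, 3443 and 107 with only the 6 libraries compared. Without single libraries they ranged from 0 to 448, 98 to 2766 and 103 to 1108. The split of 65 higher and 64 lower genes with acetate was 38 and 62 with quantile normalization. The splits of 191 and 315 with ethanol and of 366 and 114 between acetate and ethanol were 1122 and 1190, and 882 and 643, with the GC trend removed. The cause of these shifts was not tested. Where a library was left out, the remaining libraries of its group were assumed to vary like the others. The 6 genes had at least 763 reads in every library, while Cryaa, Hspb3, Hspb9 and Odf1 were too low to compare.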
